A study of Mus musculus with 10 samples.

Results

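The histone cluster genes of the mouse were followed in RNA from testes and mature sperm. Members were the genes with RefSeq mRNA transcripts whose symbol begins with Hist1h, Hist2h, Hist3h or Hist4h, and the levels of their transcripts were summed by gene. This gave 57 genes with 61 transcripts of the 16082 genes with RefSeq mRNAs above 0 in the 10 samples. By symbol, 6 genes encode the linker histone H1, 16 H2A, 13 H2B, 11 H3 and 11 H4. On the GRCm38 build, 45 genes lie on chromosome 13, 9 on chromosome 3, 2 on chromosome 11 and 1 on chromosome 6.

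C57BL/6 mice labelled as 3 to 5 months old received 1 injection of CdCl2 at 3 mg/kg or of saline into the abdominal cavity and were killed on day 35. Sperm RNA came from 4 control pools and 2 samples of cadmium-treated mice, and testes RNA from 2 samples of each treatment. Ribosomal RNA was digested with RNase H, and the strand of each read was kept. Each control sperm pool joined the sperm of several mice. Per the study's methods, the control testes came from the same mice as these pools and formed 2 biological replicates, so sperm and testes of controls shared animals. The methods cover the controls alone. They name the strain as C57BL/6J, give an age range that starts below that of the labels and mention no injection, so the saline rests on the labels. The sources used here do not say whether the samples of cadmium-treated mice came from separate animals, and the spread between those may in part be technical. As in the study, a pool of control sperm was left out of the tests. It is called pool 1 here, and its values are given beside the others.

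Histones package DNA: H2A, H2B, H3 and H4 form the core of the nucleosome, and H1 binds the DNA that links nucleosomes. Most genes of the clusters are copied into RNA while DNA is replicated, and their mRNAs end in a stem-loop instead of a poly(A) tail, so a library made without poly(A) selection can hold them. In the testis, testis-specific variants such as H1t replace some of these histones during meiosis, and protamines replace most histones in late spermatids. Mature sperm is regarded as silent in transcription, and its RNA is left from earlier stages.

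Depth differed between the tissues. Expected counts, the estimated number of fragments from each transcript, summed to between 366455 and 1058017 in the control sperm pools, 1155491 and 1254477 in cadmium sperm, and 2606086 and 2866856 in the 4 testes samples. Histone genes took 25.0 to 118.0 of these counts in a control sperm pool, 143.8 and 169.4 in cadmium sperm, and 297.6 to 337.5 in testes. The sperm marker Prm2, a protamine gene, lay between 183.72 and 438.21 FPKM in the 4 control pools and at 352.91 and 397.33 in cadmium sperm. Of the 7-gene list for sperm and late spermatids that holds it, 3 of 7 tested were called lower in control sperm and 4 of 6 in cadmium sperm, with Prm1, the other protamine gene, and Tnp1 in both. Prm1 was at 0 to 40.12 FPKM in the control pools and 121.65 and 127.74 in control testes. FPKM is the count scaled to transcript length and library size. The 5 spermatocyte markers were at 0 in all control sperm pools and summed to 4.4 and 6.9 FPKM in control testes, with 3.2 and 0.0 in cadmium sperm. Leydig cell markers summed to 27.5 FPKM in control sperm pool 3, the pool with the highest H1 sum, all from Star. The other Leydig cell markers were at 0 in that pool. The list summed to 6.9 at most in the other sperm libraries and to 15.6 to 22.2 in testes. Sertoli cell markers reached 7.3 FPKM in cadmium sperm sample 2, 2.2 in the other sperm libraries and 4.0 in testes. The 8 epithelial markers summed to 4.2 to 18.1 FPKM in the control sperm pools and to 6.0 and 10.9 in control testes. Of the 3 tested in each tissue comparison, only Krt18, with 5.0 counts at most in a library, was called, higher in sperm in both. The 5 leukocyte markers reached 4.7 FPKM in control sperm and 13.8 in cadmium sperm, with 4.2 at most in testes. Most of these sperm values came from Cd52, at 4.07 in control pool 2 and 12.07 in cadmium sperm sample 2. Ptprc and Lyz2 were at 0 in both libraries, and the rest came from Cd4 and, in the cadmium sample, Cd68. The part of these cell types in the histone values was not tested.

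The H1 promoters are shown because the H1 genes parted between the tissues: Hist1h1c and Hist1h1e held most H1 counts in sperm, while Hist1h1t and Hist1h1a had their higher values in testes. The sequences are the 150 bases before the RefSeq start on GRCm38, 5′ to 3′ on the strand of the gene. Capitals mark 3 motifs, searched on both strands. CCAAT and TATAAA are common promoter motifs. The letters AAACACA are known as the H1 box. Hist1h1c lies at chr13:23738657-23738806 (+), Hist1h1e at chr13:23622559-23622708 (-), Hist1h1t at chr13:23695661-23695810 (+) and Hist1h1a at chr13:23763518-23763667 (+).
Hist1h1c: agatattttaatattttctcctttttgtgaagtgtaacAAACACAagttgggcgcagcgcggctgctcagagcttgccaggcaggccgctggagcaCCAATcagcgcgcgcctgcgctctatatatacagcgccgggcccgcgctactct
Hist1h1e: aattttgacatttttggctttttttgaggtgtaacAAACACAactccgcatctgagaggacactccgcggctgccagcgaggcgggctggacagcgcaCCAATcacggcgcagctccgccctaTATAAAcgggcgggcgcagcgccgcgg
Hist1h1t: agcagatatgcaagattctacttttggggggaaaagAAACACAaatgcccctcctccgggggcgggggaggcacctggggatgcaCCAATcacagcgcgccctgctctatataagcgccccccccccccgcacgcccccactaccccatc
Hist1h1a: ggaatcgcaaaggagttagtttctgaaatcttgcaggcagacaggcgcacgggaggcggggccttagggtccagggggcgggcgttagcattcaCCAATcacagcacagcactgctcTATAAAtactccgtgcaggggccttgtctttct

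The H1 box stood in the windows of 5 of the 6 H1 genes, among them Hist1h1c, Hist1h1e and Hist1h1t, at 112, 115 and 114 bases before the start. The window of Hist1h1a did not hold these letters. Of all 32851 RefSeq promoter windows of this length, 3.53% held it. CCAAT stood in 43 of the 52 histone genes with a promoter entry (82.7%) against 24.5% of all windows, with all 6 H1, all 16 H2A, all 11 H2B, 7 of 9 H3 and 3 of 10 H4 genes. TATAAA stood in 20 of the 52 (38.5%) against 7.57%. Hist1h1c, Hist1h1e and Hist1h1t all held the H1 box and CCAAT, and among them only Hist1h1e held TATAAA. The part of these motifs in the levels was not tested.

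The upstream sequences of Hist2h2aa1 and Hist2h2aa2 are shown because these H2A genes gave the highest values in most samples and are near copies. In capitals are the same motifs. Hist2h2aa1 lies at chr3:96245347-96245496 (+) and Hist2h2aa2 at chr3:96240375-96240524 (-).
Hist2h2aa1: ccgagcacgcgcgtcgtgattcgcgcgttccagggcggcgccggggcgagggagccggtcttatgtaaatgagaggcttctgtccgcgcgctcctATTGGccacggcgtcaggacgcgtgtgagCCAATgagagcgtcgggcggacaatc
Hist2h2aa2: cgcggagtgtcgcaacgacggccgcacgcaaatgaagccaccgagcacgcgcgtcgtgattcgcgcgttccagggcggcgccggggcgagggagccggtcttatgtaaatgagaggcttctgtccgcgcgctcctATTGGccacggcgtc
Within the 250 bases before their starts, the genes shared an unbroken run of 169 bases, offset because their annotated starts differ. Hist2h3c1 and Hist2h3c2, the H3 genes beside them, shared a run of 231 bases, while Hist1h1c and Hist1h1e shared at most 15. Reads of such copies can be divided between the genes by the counting step, so sums over the copies are given with their single values.

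The summed level of the 57 genes overlapped between the tissues, with a wide spread between control sperm pools, while fewer single genes were listed in sperm. Histone genes summed to 189.6, 101.3 and 271.8 FPKM in control sperm pools 2, 3 and 4, with 187.7 in pool 1. They summed to 241.8 and 236.2 in control testes. After cadmium the sums were 227.1 and 251.8 in sperm and 239.7 and 257.1 in testes. Control pools 2 to 4 had a mean of 188 ± 85.3 (SD, n = 3) against 239 ± 3.98 (SD, n = 2) in control testes, and the ranges overlapped. The number of genes listed above 0 was 3 to 14 in the 4 control sperm pools, and 12 and 17 in cadmium sperm. Testes listed 32 and 35 genes in controls and 37 and 41 after cadmium. In all 10 samples, 2 genes were listed, Hist1h1c and Hist2h2aa1, and 33 genes were listed in testes samples alone. The 5 highest genes of a library held 77.8 to 100% of its histone FPKM in control sperm, 69.1 and 77.3% in cadmium sperm and 49.3 to 56.8% in testes.

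**Figure D1:**
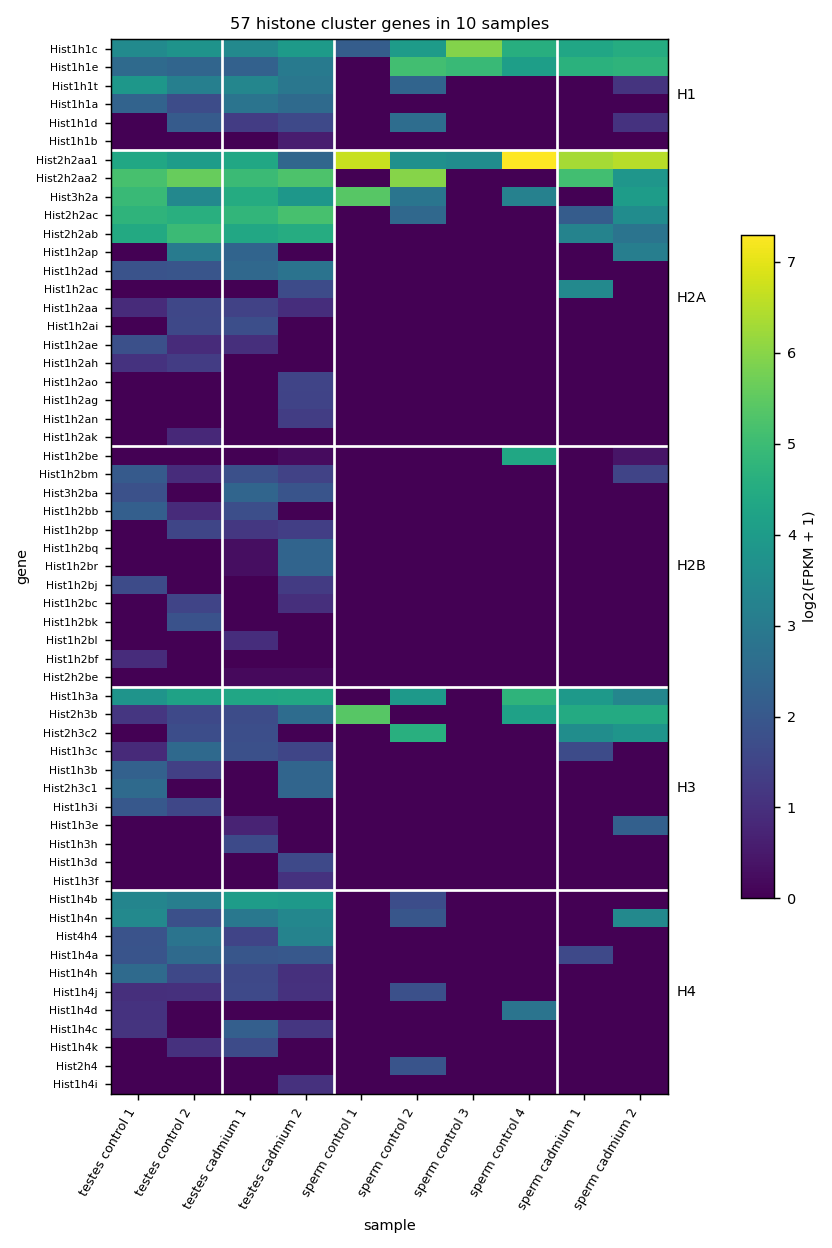
Level of each of the 57 histone genes (rows, grouped by class and ordered by mean FPKM) in each of the 10 samples (columns), as log2(FPKM + 1). Dark cells are genes at 0: 3 to 14 genes were above 0 in a control sperm pool and 32 to 41 in a testes sample.

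Most genes at 0 in sperm had few counts expected there. If control sperm pools 2 to 4 had held each gene at its share of the counts in control testes, 224.3 histone counts would have been found, and 215.0 were. Of the 40 genes at 0 in these pools, 37 had fewer than 3 counts expected, the floor that a count of 0 allows. Neither edgeR nor DESeq2 called any of these 37, whereas limma on both FPKM scales called 6: Hist1h2ad, Hist1h2ah, Hist1h3b, Hist1h3i, Hist1h4a and Hist1h4h. The other 3 were Hist2h2ab, Hist1h1a and Hist4h4, with 19.06, 4.24 and 3.18 counts expected. In cadmium sperm 288.2 counts were expected at the share of cadmium testes and 313.2 were found. There 37 genes were at 0, with 31 under 3 expected counts, of which limma on both scales called 4, and the other 6 were Hist1h4b, Hist1h1a, Hist1h2ad, Hist4h4, Hist3h2ba and Hist2h3c1.

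**Figure D2:**
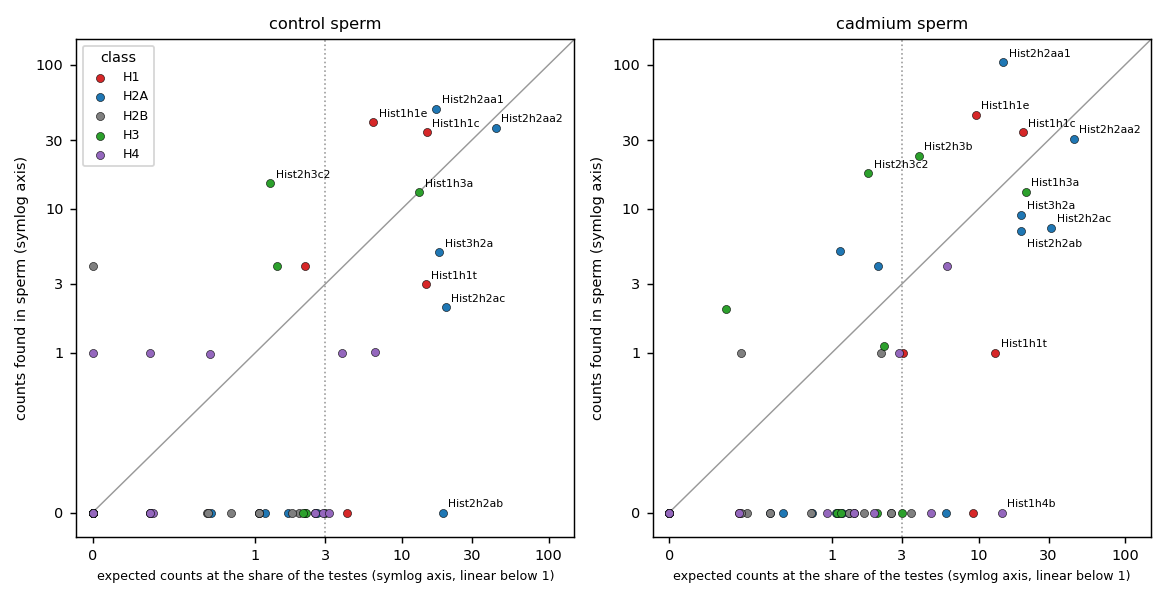
Counts found in sperm against the counts expected if each histone gene had its share of the testes, for control sperm pools 2 to 4 (left) and cadmium sperm (right), 1 point for each gene, colored by class, on axes that are linear below 1 and logarithmic above. On the line found equals expected, and the dotted line marks 3 expected counts. Hist1h1e and Hist2h2aa1 lie above the line in both panels, and Hist2h2ab, Hist2h2ac and Hist1h1t below it.

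Counts were summed over the libraries of each group of sperm. By class, H1 and H3 counts exceeded those expected from testes in both groups of sperm, and H4 and H2B counts fell short in both. In control sperm pools 2 to 4, 81.0 H1 counts were found against 42.0 expected, and 5.0 H4 counts against 20.8. In cadmium sperm, 81.0 H1 counts were found against 55.1 expected, and 5.0 H4 counts against 34.3. For H2A, 93.0 counts were found against 127.7 expected in control sperm and 167.9 against 144.6 in cadmium sperm. H3 had 32 against 25.3 and 57.3 against 37.7, and H2B 4.0 against 8.5 and 2.0 against 16.5.

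The H4 sum in FPKM was 10.41, 0.0 and 6.02 in control sperm pools 2, 3 and 4 against 32.22 and 24.93 in control testes. It was 0.0 in pool 1, 2.08 and 9.82 in cadmium sperm, and 36.64 and 39.68 in cadmium testes. Every sperm library lay below every testes library. The mean was 5.48 ± 5.23 (SD, n = 3) in control sperm, 0.192 times that of control testes, and the exact two-sided permutation test gave p = 0.1, the smallest that 3 against 2 samples allow. The cadmium groups gave p = 0.333 by the same exact permutation test, the smallest for 2 against 2. The H1 sum was 57.32, 90.53 and 38.87 in control sperm pools 2 to 4 against 32.68 and 29.94 in control testes, without overlap (exact permutation p = 0.2), but pool 1 had 3.47. Over the 5 classes and the tissue comparisons, 10 such tests were possible and none could reach 0.05. Fewer cells of a type and less RNA per cell cannot be told apart in such bulk samples.

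**Figure D3:**
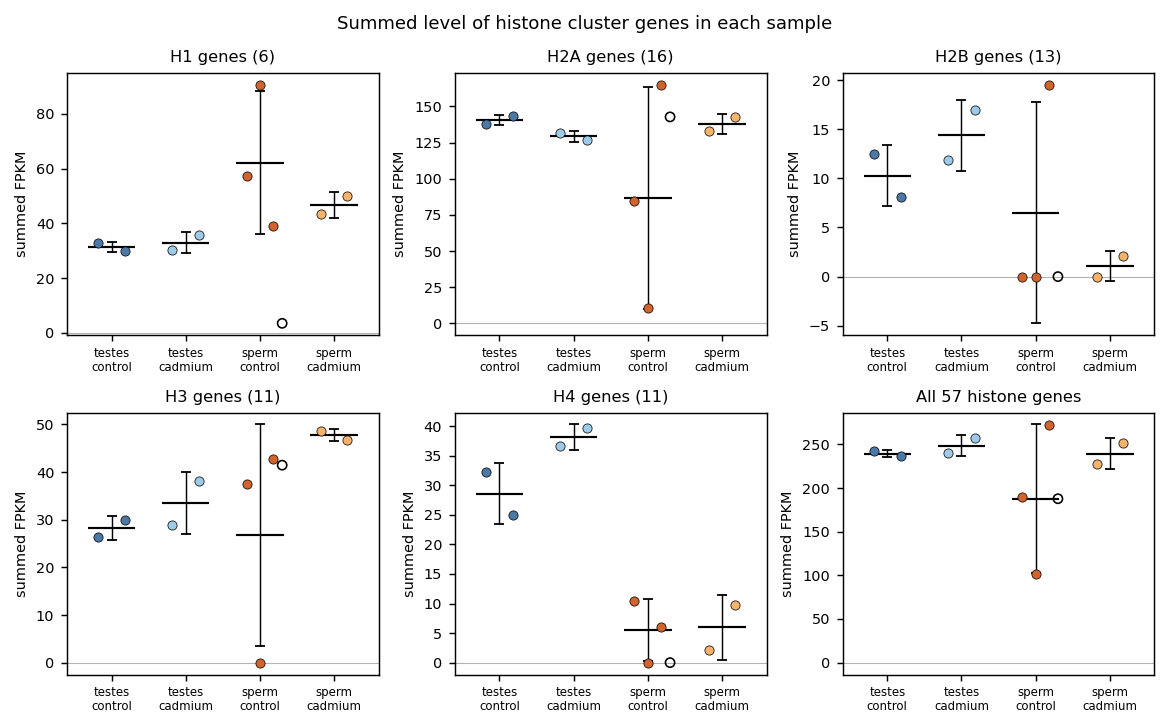
Summed FPKM of each histone class and of all 57 genes in each sample. Points are samples, lines are means with ± 1 SD (which can reach below 0), and open circles are control sperm pool 1, not in the means. The 6 sperm libraries have H4 sums of 10.41 or less, and the 4 testes samples 24.93 or more.

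To compare sperm with testes gene by gene, the rounded counts were tested by edgeR's quasi-likelihood test across genes of all RNA classes, with Benjamini-Hochberg adjustment, and calls needed an adjusted p below 0.05 together with a fold change over 2. Between control sperm and control testes, 24 of the 57 genes had at least 1 FPKM in 2 samples and were tested. A gene could pass through the testes samples alone, and such a gene had to differ from sperm at 0. Of these, 2 were called (8.3%), both lower in sperm, beside 22.0% of all 24432 genes and 24.7% of the 4910 mRNA genes tested. In the cadmium groups 27 genes were tested and 8 were called (29.6%), 4 higher and 4 lower in sperm, beside 31.7% of all 25779 genes and 39.7% of the 5080 mRNA genes. Neither share of the histone genes was above that of mRNA genes. The median log2 fold change of the tested histone genes was -2.19 in controls, where that of all genes was -1.24, and -1.04 in the cadmium groups, where that of all genes was -0.295. The control calls rested on single libraries: without pool 2 or without pool 4 there was 0, without pool 3 there was 1, and without either testes sample 0, since Hist1h1a and Hist2h2ab were then not tested. The cadmium count also fell without testes sample 1, without testes sample 2 and without sperm sample 1. Without testes sample 1 or 2, only 17 of the 27 genes were tested. Hist1h1a, Hist1h2ad and Hist1h4b, at 0 in cadmium sperm, were among those not tested then.

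Among the linker histones, Hist1h1e, which encodes H1.4, an H1 of most somatic cells, was higher in sperm. Its FPKM was 33.00, 29.84 and 15.90 in control sperm pools 2, 3 and 4 and 4.74 and 4.20 in control testes. In cadmium sperm it was 24.39 and 25.76, against 3.83 and 7.06 in cadmium testes. These groups did not overlap, but pool 1 listed the gene at 0. The edgeR log2 fold change was 2.42 (SE 0.69, adjusted p = 0.00293) in the cadmium groups and 2.35 (SE 1.46, adjusted p = 0.243) in controls. The cadmium call was kept in 13 of 15 alternatives and lost without testes sample 1 (adjusted p = 0.208) and in 1 fit over all 9 samples (0.167).

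Hist1h1c, which encodes H1.2, was at 15.13, 60.69 and 22.97 FPKM in control sperm pools 2 to 4, 3.47 in pool 1, and 10.28 and 12.40 in control testes. It reached 18.88 and 22.10 in cadmium sperm and 9.86 and 14.78 in cadmium testes. Outside pool 1, each sperm library lay above the testes samples of its treatment, but the gene was not called in either comparison by edgeR (adjusted p = 0.565 in controls and 0.263 in cadmium). Together, Hist1h1c and Hist1h1e held 84.1 to 100% of the H1 counts in the sperm libraries and 45.0 to 61.2% in testes.

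Hist1h1t encodes H1t, the linker histone of spermatocytes and early spermatids, and was mostly in testes. Its FPKM was 13.67 and 7.85 in testes of controls and 9.20 and 6.47 after cadmium. In control sperm it was 4.07 in pool 2 and 0 in the other 3 pools, and in cadmium sperm 0 and 1.15. All sperm values were below all testes values. In the cadmium groups edgeR gave a log2 fold change of -3.27 (SE 1.35, adjusted p = 0.0495), a call that was lost without sperm sample 1 (adjusted p = 0.22) or without testes sample 1 or 2 (0.159 and 0.176). The call was kept in 4 of 15 alternatives, and DESeq2 gave an adjusted p of 0.211, the fit without TMM 0.0612 and that without a filter 0.064. In controls the log2 fold change was -2.49 (SE 1.62, adjusted p = 0.267).

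Hist1h1a, which encodes H1.1, was at 0 in all 6 sperm libraries, at 3.99 and 2.21 FPKM in testes of controls and 6.05 and 4.78 after cadmium. The edgeR adjusted p was 0.0465 in controls and 0.0236 in the cadmium groups. Against a floor of 3 counts over the sperm group, its share of the counts was at least 1.41-fold lower in control sperm and at least 3.04-fold lower in cadmium sperm. The call was lost without any of control sperm pools 2, 3 and 4 (adjusted p = 0.0802, 0.135 and 0.181) and without cadmium sperm sample 1 or 2 (0.0905 and 0.0792). It was kept in 6 of 15 alternatives in controls and in 9 of 13 in the cadmium groups. The remaining H1 genes were scarce: Hist1h1d reached 5.12 FPKM at most and Hist1h1b 0.5.

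**Figure D4:**
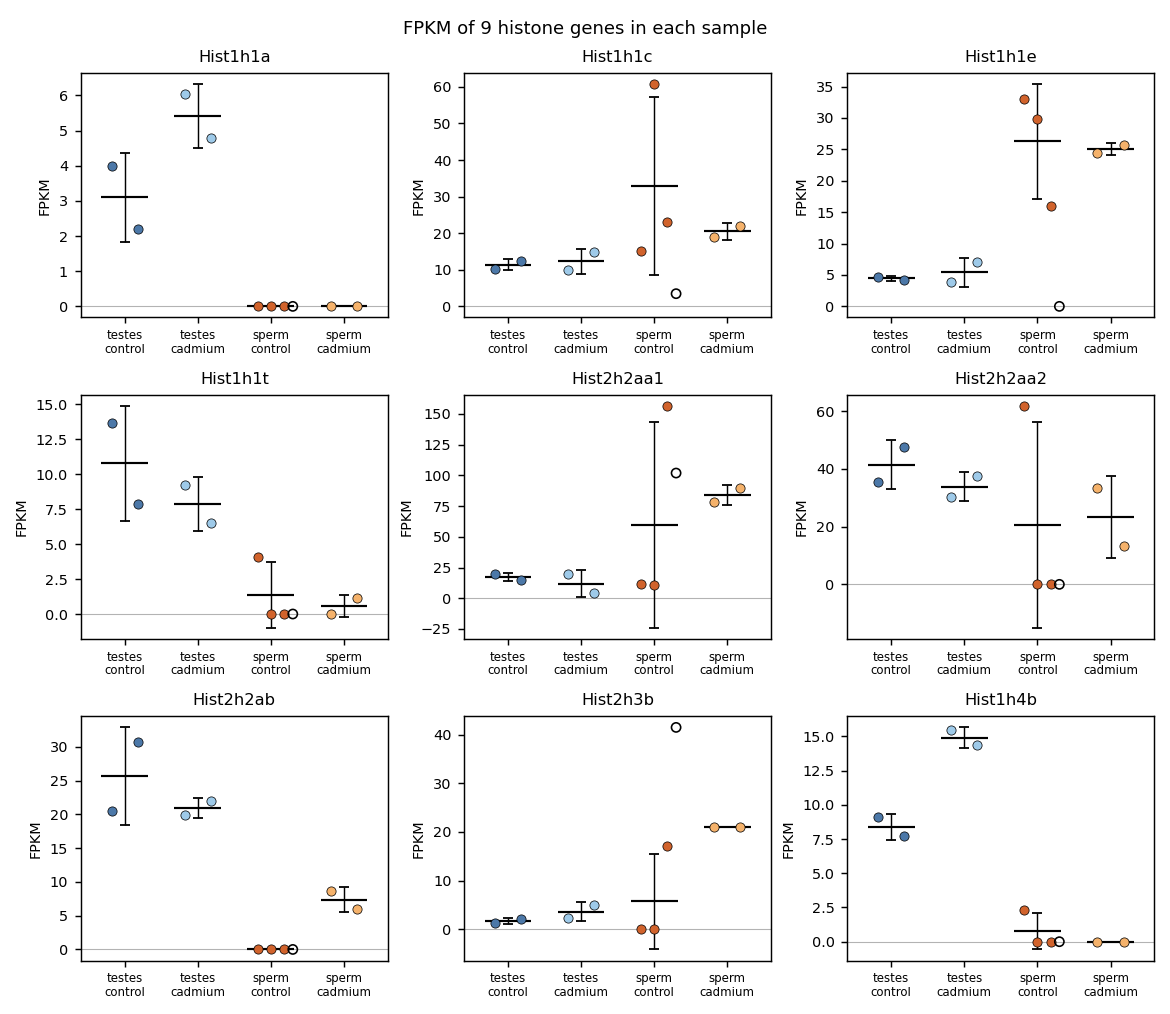
FPKM of 9 histone genes in each sample, with each panel on its own axis. Points are samples, lines are means with ± 1 SD (which can reach below 0), and open circles are control sperm pool 1, not in the means. Hist1h1e is at 15.90 or more in 5 sperm libraries and 7.06 or less in testes, and Hist1h1a is at 0 in the 6 sperm libraries.

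The H2A genes on chromosome 3 gave the highest single values of the 57 genes. Hist2h2aa1 was at 11.78, 10.81 and 156.54 FPKM in control sperm pools 2, 3 and 4, 101.87 in pool 1, and 19.50 and 15.24 in control testes. In cadmium sperm it was 77.94 and 89.74 against 19.52 and 4.29 in cadmium testes. The cadmium groups did not overlap, with a log2 fold change by edgeR of 3.18 (SE 0.61, adjusted p = 3.64e-06), and the control groups did, with 1.56 (SE 1.25, adjusted p = 0.381). The cadmium call held without each library of that comparison and in 14 of 15 alternatives, and was lost with limma on log2(FPKM + 0.1) (adjusted p = 0.0689).

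Its copy Hist2h2aa2 was at 61.85 FPKM in control sperm pool 2 and at 0 in the other 3 pools, where Hist2h2aa1 was listed. It was at 35.39 and 47.51 in control testes, 33.33 and 13.26 in cadmium sperm and 30.31 and 37.40 in cadmium testes. Summed over both copies, the level was 101.87 FPKM in control sperm pool 1, 73.63, 10.81 and 156.54 in pools 2 to 4, 54.89 and 62.75 in control testes, 111.27 and 103.0 in cadmium sperm and 49.83 and 41.69 in cadmium testes. With the copies of chromosome 3 summed, a setting chosen after the data were seen, the log2 fold change in the cadmium groups fell from 3.18 to 1.44 (SE 0.55, edgeR adjusted p = 0.0304). In controls it was 0.24 (SE 0.97, adjusted p = 0.888).

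Hist2h2ab, another H2A gene of this cluster, was at 0 in the 4 control sperm pools and at 20.53 and 30.76 FPKM in control testes. It was at 8.67 and 6.03 in cadmium sperm and 19.84 and 21.97 in cadmium testes. In controls edgeR gave an adjusted p of 0.0465, and the share of the counts was at least 6.35-fold lower in sperm, against a floor of 3 counts over pools 2 to 4. That call was lost without pool 2 (adjusted p = 0.0767) or without pool 4 (0.174), and was kept in 9 of 15 alternatives. Between cadmium sperm and cadmium testes the gene was not called, with a log2 fold change of -1.25 (SE 0.88, adjusted p = 0.28).

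Its neighbor Hist2h2ac was at 4.56 FPKM in control sperm pool 2, 0 in the other 3 pools and 25.73 and 23.23 in control testes. It was at 3.35 and 10.66 in cadmium sperm and 26.97 and 35.30 in cadmium testes. Every sperm value lay below every testes value, though the gene was called in neither comparison (edgeR adjusted p = 0.139 and 0.0797), while limma on log2(FPKM + 1) called it in controls and edgeR on mRNA genes alone in the cadmium groups. Hist3h2a was at 6.14, 0 and 8.22 FPKM in control sperm pools 2 to 4, below the 29.87 and 9.54 in control testes, but at 40.92 in pool 1. The cadmium groups overlapped, with 0 and 15.49 in sperm and 21.57 and 13.69 in testes. The gene was called in neither comparison in the main fits, and in the cadmium groups the result depended on sperm sample 2. Of the Hist1 H2A genes, Hist1h2ad was at 0 in the 6 sperm libraries, 2.65 and 2.78 in testes of controls and 4.53 and 5.81 after cadmium. It was called lower in cadmium sperm (edgeR adjusted p = 0.05 when rounded and under the threshold, at least 2.01-fold lower against the floor), and lost that call without sperm sample 1 or 2 (0.154 and 0.143). Of 13 alternatives, 4 kept it. Hist1h2aa, the gene of the testis-specific H2A, was at 0.86 to 1.92 FPKM in testes and 0 in sperm.

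In testes and in cadmium sperm, the H2B genes had the lowest sum of the 5 classes in every sample. Their sum was 12.46 and 8.07 FPKM in control testes, 11.83 and 16.95 in cadmium testes, and 0.0 and 2.12 in cadmium sperm. In control sperm, 3 pools were at 0 and pool 4 was at 19.49, all from Hist1h2be, which was at 0 in control testes. In control testes Hist1h2bb was at 3.64 and 0.87 FPKM and Hist1h2bm at 3.20 and 0.89. Hist3h2ba was at 2.52 and 0 in testes of controls and 4.25 and 2.70 after cadmium, and at 0 in sperm. No H2B gene was called by edgeR in either tissue comparison, while limma on both FPKM scales called Hist1h2bp and Hist3h2ba lower in cadmium sperm.

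Among the H3 genes, Hist2h3b and Hist2h3c2 of chromosome 3 were called higher in cadmium sperm. Hist2h3b was at 20.99 and 20.93 FPKM in cadmium sperm against 2.27 and 4.99 in cadmium testes, with a log2 fold change of 2.72 (SE 0.88, edgeR adjusted p = 0.00954). Hist2h3c2 was at 10.99 and 12.95 against 2.38 and 0, with 3.58 (SE 1.02, adjusted p = 0.0029). In control sperm pools 1 to 4, Hist2h3b was at 41.46, 0, 0 and 17.07 and Hist2h3c2 at 0, 23.21, 0 and 0, so that no pool listed both. Without cadmium testes sample 1 the adjusted p rose to 0.247 for Hist2h3b and 0.0641 for Hist2h3c2, and without testes sample 2 to 0.146 for Hist2h3c2. In 1 fit over all 9 samples it was 0.163 and 0.0887, and the calls were kept in 11 of 15 and 10 of 14 alternatives. Hist2h3c1, the copy of Hist2h3c2, was at 0 in the 6 sperm libraries and at 4.76, 0, 0 and 4.16 FPKM in control testes 1 and 2 and cadmium testes 1 and 2.

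Summed over Hist2h3b, Hist2h3c1 and Hist2h3c2, the level was 41.46 FPKM in control sperm pool 1, 23.21, 0.0 and 17.07 in pools 2 to 4, 5.97 and 4.36 in control testes, 31.98 and 33.88 in cadmium sperm and 4.65 and 9.15 in cadmium testes. The log2 fold change of the sum in the cadmium groups was 2.42 (SE 0.71, edgeR adjusted p = 0.0039), and in controls 1.35 (SE 1.56, adjusted p = 0.562). Hist1h3a was the H3 gene with the highest level in control testes, at 12.77 and 17.47 FPKM. It was at 0 in control sperm pool 1, 14.29, 0 and 25.60 in pools 2 to 4, 14.54 and 9.23 in cadmium sperm and 18.98 and 19.69 in cadmium testes, and was not called by edgeR. The other 7 H3 genes stayed at or below 4.63 FPKM in every sample.

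The H4 genes all encode the same protein, and none was listed in more than 2 of the 6 sperm libraries. Hist1h4b was at 9.08 and 7.70 FPKM in testes of controls and 15.44 and 14.37 after cadmium. It was at 2.32 in control sperm pool 2 and at 0 in the other 5 sperm libraries. In the cadmium groups edgeR gave an adjusted p of 0.00532, and the share of the counts was at least 4.8-fold lower in sperm against the floor. This call was kept in all 13 alternatives in which the gene was tested. Leaving out either cadmium testes sample was not among these, because the gene then failed the filter. The dependence of the call on a single testes sample was therefore not tested. In controls the gene was not called (adjusted p = 0.182).

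Hist1h4n was at 9.85 and 2.44 FPKM in testes of controls and 6.64 and 9.39 after cadmium, with 2.90 in control sperm pool 2 and 9.82 in cadmium sperm 2. Hist4h4 was at 2.67 and 5.94 in control testes, 1.80 and 8.57 in cadmium testes and 0 in sperm, and was not called by edgeR (adjusted p = 0.0614 in controls and 0.0687 in cadmium), while limma on log2(FPKM + 0.1) called it in both, and limma on log2(FPKM + 1) and edgeR on mRNA genes alone in controls. Hist1h4d, at 6.02 in control sperm pool 4 and 1.09 in control testes 1, and Hist2h4, with 2.74 in pool 2, were listed in few libraries. Hist2h4 was the 1 member listed in sperm alone.

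Cadmium and control were then compared within each tissue. In testes, 35 histone genes were tested and 0 were called, beside 0.0225% of all 26724 genes. At an unadjusted p under 0.05, edgeR gave 1, DESeq2 0 and limma 2 with a pseudocount of 1 and 1 with 0.1, and none of these tools called a histone gene. The gene below 0.05 by edgeR was Hist1h3i, an H3 gene at 3.05 and 1.92 FPKM in control testes and 0 in cadmium testes (edgeR adjusted p = 1). Hist1h4b and Hist1h1a had higher values in both cadmium testes than in both control testes, with log2 fold changes of 0.97 (SE 0.66) and 0.87 (SE 0.74) and an edgeR adjusted p of 1 each. Among the 22 named genes, Hist1h2ad, Hist1h3a, Hist2h3b and Hist3h2ba were also higher in cadmium testes without overlap, and the rest overlapped. With 2 against 2 samples a lack of overlap is frequent without any effect. The share of all genes without overlap was not taken, so nothing is read from these genes as a set. The H4 sum was 1.335 times as high in cadmium testes, without overlap. The H2A sum was 138.07 and 143.28 FPKM in control against 131.98 and 126.68 in cadmium testes. For both sums the exact permutation test gave p = 0.333, the smallest for 2 against 2, so it could not tell either from no effect.

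In sperm, 13 histone genes were tested and 0 were called, beside 0.0824% of all 20638 genes. By edgeR 1 had an unadjusted p under 0.05, by DESeq2 0, and by limma 1 with either pseudocount, which was called with a pseudocount of 0.1. It was Hist2h2ab, at 0 in the 4 control pools and 8.67 and 6.03 FPKM in cadmium sperm (edgeR adjusted p = 0.546). Against the floor, its share of the counts was at least 1.87-fold higher in cadmium sperm. The sum of the H3 genes was 48.71 and 46.84 FPKM in cadmium sperm against 0.0 to 42.67 in the 4 control pools. With pools 2 to 4 the exact permutation test gave p = 0.3, and the sums of H1, H2A, H2B and H4 overlapped.

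The difference of the cadmium effect between sperm and testes was tested for 37 histone genes, and 0 were called, beside 0.0396% of all 32813 genes. At an unadjusted p under 0.05 edgeR gave 1, again Hist2h2ab (adjusted p = 1), DESeq2 0, and limma 3 with either pseudocount. These comparisons share samples with those above.

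Genes that act on histones were compared in the same fits. Of all mRNA genes tested, 20.3% were called lower in control sperm and 18.9% in cadmium sperm, and 24.7% and 39.7% in either direction. The lists hold few tested genes, and nothing is read from their shares beside these. Of 21 genes for histone mRNA synthesis and processing, 18 were listed and 7 were tested in each tissue comparison. In controls 4 were called, all lower in sperm: Slbp, which binds the stem-loop of histone mRNA, Npat, an activator of the histone clusters, Coil and Ncbp1. After cadmium Coil and Pou2f1 were called lower and Upf1, which takes part in the decay of histone mRNA, higher. Slbp was at 0 in the control sperm pools and 3.57 and 4.22 FPKM in control testes, but at 2.44 and 1.80 in cadmium sperm against 3.40 and 3.37 in cadmium testes. Upf1 was at 9.91 ± 3.90 FPKM (SD, n = 2) in cadmium sperm and 0.99 ± 0.20 in cadmium testes.

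Of the 24 histone chaperones, 23 were listed, and 4 of 11 tested were called lower in control sperm and 4 of 12 in cadmium sperm, with Supt16, Nasp and Chaf1a in both. Supt16, a subunit of the FACT complex that moves nucleosomes for polymerases, was at 13.1 ± 2.96 FPKM (SD, n = 3) in control sperm and 107 ± 10.1 (SD, n = 2) in control testes, with a log2 fold change of -3.28 (SE 0.62, edgeR adjusted p = 4.57e-05). Of the 18 S phase genes, 17 were listed, and 2 of 7 tested were called lower in both comparisons, Pcna, the clamp of DNA replication, and Ccna2, a cyclin. Of 26 histone genes outside the cluster names, 15 were listed, and 2 of 8 were called lower in control sperm, Hils1, a linker histone of late spermatids, and H3f3b, a gene of H3.3. After cadmium 1 of 10 was called, H1fx, a linker histone gene that was higher in sperm, at 60.93 and 45.12 FPKM against 23.52 and 11.18 in testes. No gene of these 4 lists was called for cadmium in either tissue or for the difference between them.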

How the data were processed

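Per the labels and the methods, RNA freed of ribosomal RNA was sequenced from both ends with its strand kept. The methods name SOAPaligner/SOAP2, and the submitters' processing notes name HISAT and mm10. The counting tool is not given in the sources used here. The authors deposited an expected count for each transcript above 0, an estimate that was not normalized, and FPKM, scaled to length and library size. A transcript not listed was taken as 0.

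Counts and FPKM were summed by gene, counts were rounded, and edgeR 4.0.16 in R 4.3.3 (quasi-likelihood test, TMM, Benjamini-Hochberg) was run over genes of all RNA classes with at least 1 FPKM in 2 samples of the comparison. The SE is the log2 fold change divided by the square root of F, not a spread between samples. Medians and sums were taken with Python 3.11.15 and pandas 2.3.3, and figures drawn with matplotlib 3.10.9. DESeq2 1.42.0, limma 3.58.1 on log2(FPKM + 1) or log2(FPKM + 0.1), other filters, scalings, sample sets and a replicate block were alternatives. Floors cover counting error only.

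The members and lists were chosen with earlier results of these data known. Named genes were testis-specific or replication-independent variants, the 2 highest genes of each class in control testes and in control sperm, and the 3 largest called rises and falls without overlap. Hist1h2ba, named by this rule, is not analysed here. Hist1h3i, Hist1h1b, Hist1h1d, Hist2h2ac, Hist2h4 and Hist4h4 were named after their values were seen. Promoters come from RefSeq (GRCm38.p6). All 57 genes matched by accession and 52 have a promoter entry.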

Additional observations from a re-analysis of the deposited data

Results flagged for a closer look

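Among 28 sets of values over the 4 control sperm pools, 9 held a pool far from the other 3, by the gap between the outermost pool and its neighbor. Of these 9, 8 had the other 3 pools at 0, and a gene listed in 1 of 4 pools always meets this gap, so the rate of about 1 in 20 that chance gives does not apply to them. Pool 2 stood alone with Hist1h1t at 4.07 FPKM, Hist1h4b at 2.32, Hist1h4n at 2.9, Hist2h2aa2 at 61.85 and Hist2h3c2 at 23.21, where the other pools were at 0. Pool 2 also had the largest total count of the control sperm pools, 1058017. Pool 4 stood alone with Hist1h2be at 19.49 and, through it, the H2B sum at 19.49, and with Hist1h4d at 6.02. Pool 3 stood alone with an H3 sum of 0.0, and had the smallest total, 366455. For Hist2h2aa2 and Hist2h3c2 the copies Hist2h2aa1 and Hist2h3b were listed in other pools. The part of depth in these values was not tested.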

How the results depend on the processing

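Between control sperm and control testes the count of called histone genes, 2, was 1 with DESeq2 and in 1 fit over all 9 samples, 0 without TMM, without a filter and with at least 10 counts, 11 with limma on log2(FPKM + 1) and 9 on log2(FPKM + 0.1). It stayed at 2 or 3 with transcripts, with summed copies, with mRNA genes alone and with all 4 pools. Leaving out 1 library gave 0 to 1. In the cadmium groups the count, 8, was 4 with DESeq2, 5 without TMM, 13 with limma on log2(FPKM + 1) and 3 in 1 fit over all 9 samples, and 1 to 8 when 1 library was left out. For cadmium against control in sperm, limma on log2(FPKM + 0.1) called 1, and every other alternative run for cadmium in sperm, in testes and for the difference called 0. The median of all genes moved from -1.24 to -1.11 in controls and from -0.295 to -0.552 in the cadmium groups without TMM. The causes were not tested.

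The replicate number as a block gave 0 calls between control sperm and control testes with all 4 pools, 5 between cadmium sperm and cadmium testes, and 0 in the other comparisons. The numbers were not shown to pair the samples: the groups compared shared 2 numbers. Deviations from the group means correlated at 0.47 across genes in testes and 0.077 between cadmium sperm and testes. For cadmium in testes, the block raised the calls among genes of all RNA classes from 6 to 89. The main fits left out any factor that same-numbered testes samples share.

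Among the named genes, signs turned only where a gene was not called. In controls these were, with the block, Hist1h1c (-0.31), Hist1h4d (-1.08) and Hist3h2a (0.11), Hist1h3a with at least 10 counts (0.027), and Hist2h3b with limma on log2(FPKM + 0.1) (-1.60). Leaving out 1 library gave -0.71 to 0.33 for Hist1h3a, -0.67 to 2.08 for Hist2h2aa1 and -3.47 to 2.12 for Hist2h3b, the latter pair lowest without pool 4. In the cadmium groups it gave -4.07 to 0.22 for Hist1h2bm, -4.05 to 0.10 for Hist1h3c, -5.52 to 0.71 for Hist1h4n, -0.98 to 0.11 for Hist2h2aa2 and -7.15 to 0.25 for Hist3h2a. All 24 alternatives for the class sums moved the ratio of control sperm to control testes by less than the spread between pools. This spread was wide, so a change of direction could stay within it. The ratio for H3 went from 0.948 on FPKM to 1.03 with counts scaled to library totals and 1.198 when scaled to mRNA counts. For all 57 genes it went from 0.785 to 1.087 with the latter scaling. H1 stayed higher and H2A, H2B and H4 lower in control sperm, with H1 at 1.988 on FPKM and 1.519 with all 4 pools.

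With 3 to 41 of 57 genes listed in a library, most single genes rest on few counts, and 37 of the 40 zeros in control sperm had under 3 counts expected. Where a setting left 1 sample in a group, that sample was assumed to vary like the others. The division of reads between Hist2h2aa1 and Hist2h2aa2 and among the H3 genes of chromosome 3 is uncertain. Counts that were not whole numbers were not limited to these genes. They made up 57.1 to 65.9% of the histone genes listed in testes and 66.7 and 47.1% in cadmium sperm. In the control sperm pools the share was 0.0 to 42.9%. In control testes 1 they included Hist1h4b (10.49), Hist1h2ad (3.71), Hist2h2ac (31.04) and Hist3h2a (39.47). The part of divided reads in their values and calls was not tested.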
